A study of Mus musculus with 4 samples.

Results

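Imprinted genes are transcribed from only the maternal or only the paternal copy, and many of them control how much fetal tissues grow. H19, Igf2, Meg3, Dlk1, Mest, Peg3, Plagl1, Cdkn1c, Grb10 and Ndn have been described as a network of such growth genes that is active in the fetus and turned down after birth. Igf2 is the growth factor of the group, Plagl1 is a zinc finger transcription factor that acts on other imprinted genes, Dlk1 is known for holding preadipocytes back from becoming fat cells, and Cdkn1c and Grb10 restrain growth. These 10 genes were followed through 4 arrays of adult mouse heart cells. They were chosen by name, by taking every probe whose gene name in the array files was one of the 10, and they make up 10 of the 22221 named genes on the array. They had 25 probes, of which 24 were well above background (the scanner software's call of signal over local background) on at least 1 array and 22 on all 4. All 10 genes had at least 1 such probe, as did 16657 named genes in all.

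The cells were cardiac mesenchymal progenitors (CMPs), Sca-1+ cells grown from atria of adult wild-type C57BL/6 mice. The control was untreated CMPs at day 0. The OSKM-CMPs carried Sendai viruses encoding Oct4, Sox2, Klf4 and c-Myc, were moved the day after infection into a reprogramming medium without leukemia inhibitory factor, and were sampled at days 4, 6 and 8 after that move, a course in which lipid droplets form. There was 1 array per condition, and no untreated culture was sampled at the later days, so effects of the factors, of the virus, of the medium and of time in culture cannot be told apart. Nothing in the labels says how many mice gave the cells.

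With 1 array per condition no test between conditions was possible. The errors printed below come from the scanner software's error model for single spots; they describe the reading of an array and not the spread between cultures. The number of arrays limits the precision. A gene was called higher or lower when its log2 signal, relative to the array's 75th percentile, changed by at least 1, which is 2-fold. The 75th percentile itself was a signal of between 388 and 411 on the 4 arrays, so the signals printed below are close to comparable as they stand. Levels of different probes were not compared with each other, since probes bind with different strength; the summed levels of marker lists given at the end pool probes, follow the brightest of them, and are set against each other across arrays only.

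The probes that carry the main values are shown as the array files give them, 5′ to 3′, with their positions on mm9. The first reads the coding sequence of Dlk1, at chr12:110698502-110698561, plus strand. The second reads the coding sequence of Plagl1, at chr10:12848421-12848480, plus strand, and is shown because its signal stayed level while other Plagl1 probes rose. The next probes read the noncoding RNAs Meg3, at chr12:110809678-110809737, plus strand, and H19, at chr7:149761492-149761551, minus strand. The one after reads the coding sequence of Mest, at chr6:30692160-30692219, plus strand. The last reads the coding sequence of Ndn, at chr7:69493847-69493906, plus strand, and is shown because Ndn was the member that went down.
Dlk1 probe A_55_P2105371: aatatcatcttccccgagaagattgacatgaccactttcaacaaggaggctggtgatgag
Plagl1 probe A_55_P1961965: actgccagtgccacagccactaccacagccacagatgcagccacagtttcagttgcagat
Meg3 probe A_51_P455997: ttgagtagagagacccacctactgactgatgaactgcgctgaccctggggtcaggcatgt
H19 probe A_55_P1961127: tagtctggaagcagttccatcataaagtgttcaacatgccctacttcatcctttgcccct
Mest probe A_55_P2151868: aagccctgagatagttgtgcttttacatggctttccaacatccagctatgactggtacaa
Ndn probe A_52_P451644: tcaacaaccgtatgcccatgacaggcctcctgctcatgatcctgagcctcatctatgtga

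As a group, the 10 genes were more often higher than lower after OSKM. At day 4, 6 of the 10 were by their measured means at least 2-fold higher than in the control, namely Meg3, Dlk1, Mest, Peg3, Plagl1 and Cdkn1c, and 0 were lower; over all 16657 genes, 12.1% were higher and 9.57% were lower. At day 6, 6 were higher, with Igf2 in the place of Peg3, and 0 were lower, against 13% and 11.4% of all genes. The calls of Peg3 at day 4 and of Igf2 at days 6 and 8 use control readings that were not well above background. At day 8, 5 were higher, namely Igf2, Meg3, Dlk1, Plagl1 and Cdkn1c, and 0 were lower, against 14.4% and 11.6% of all genes. The median log2 change of the 10 genes was 1.13, 1.22 and 1.01 at days 4, 6 and 8, beside -0.01, -0.04 and -0.03 for all genes. From day 4 to day 8 the median of the 10 was -0.41 and that of all genes -0.03; Mest and Cdkn1c were at least 2-fold lower at day 8 than at day 4 and 0 were higher, against 4.1% lower and 4.93% higher among all genes. With each value not above background raised to the lowest signal called above background on its array, which turns a change from a dim control into a bound, the count was 5 on each of the 3 days, without Peg3 at day 4 and without Igf2 at day 6, against 9.73%, 10.8% and 11.9% of all genes. The 4 Plagl1 probes disagree, as described with that gene. Under normexp background correction with quantile normalization, 3 genes were higher at day 8 and the median fell to 0.29; with Plagl1 taken from its steady probes, 4 were higher and the median was 0.55.

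**Figure D1:**
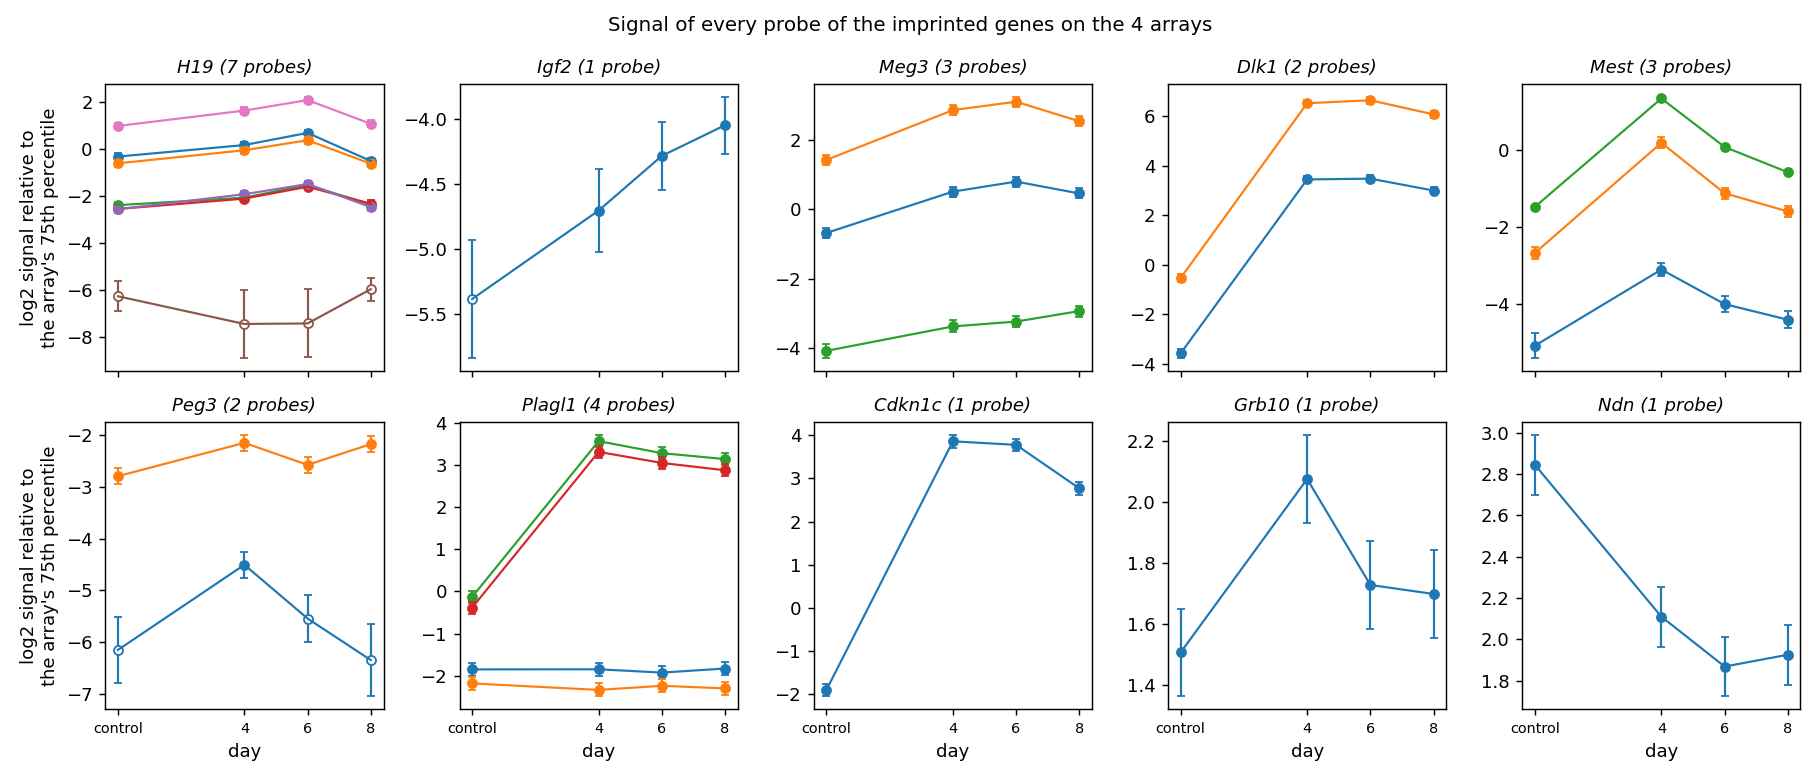
Signal of each of the 25 probes on the 4 arrays, one panel per gene, as log2 signal relative to the array's 75th percentile (vertical axis, scaled separately in each panel) against the day (horizontal axis). Points are single arrays, bars are the scanner software's error, open points are not well above background, and colours separate the probes of a gene. Dlk1 and Cdkn1c climbed steeply by day 4, Mest peaked at day 4, H19 at day 6, and Ndn went down.

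Dlk1 changed the most. It encodes a paternally expressed transmembrane protein with epidermal growth factor repeats, also called preadipocyte factor 1, which is shed from the cell surface and inhibits adipocyte differentiation. Its coding-sequence probe, A_55_P2105371, read a signal of 32.8 in the control and 4246, 4542 and 3292 at days 4, 6 and 8. The probe A_66_P117477 read 270.3 in the control and 35836, 40694 and 27732 at days 4, 6 and 8. Both were therefore low in the control, high on all 3 later arrays and somewhat lower on the last of them. The change of the gene was 7.04, 7.11 and 6.59 ± 0.16 on the log2 scale at days 4, 6 and 8, and the folds of the separate probes at day 8 were 95.0 and 97.2. Days 4 and 6 differed by less than 2 errors, while the fall by 0.45 ± 0.14 between day 4 and day 8 was larger. Of all 16657 genes, 67 rose more by day 8. With normexp correction the changes were 5.97, 6.16 and 5.66.

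Cdkn1c, the maternally expressed cyclin-dependent kinase inhibitor p57, followed Dlk1 in the size of its change. Its only probe, A_51_P339540, read 103.9 in the control and 5648, 5578 and 2802 at days 4, 6 and 8. It was 54.5-fold higher than the control at day 4, 51.5-fold at day 6 and 25.6-fold at day 8, with an error of 0.21 on the log2 scale in each. Days 4 and 6 were within 2 errors of each other; the signal then fell, with a log2 difference of -1.09 between day 8 and day 4. With normexp correction the log2 changes were smaller, at 5.02, 4.99 and 3.98.

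Meg3 lies downstream of Dlk1 on chromosome 12 and is a noncoding RNA made from the maternal copy. The probe A_51_P455997 read 1045, 2821, 3492 and 2386 over the control and days 4, 6 and 8. The probe A_55_P2033407 read 242.4, 552.8, 706.7 and 563.3. The probe A_52_P196568, designed to another transcript form, read 22.9, 37.3, 43.0 and 53.7. All 3 were lowest in the control; the first and second peaked at day 6 and the third was highest at day 8. The mean change was 1.11, 1.34 and 1.13 ± 0.13 at days 4, 6 and 8, and the last 3 arrays differed from their neighbours in that order by less than 2 errors. The 2-fold call at days 4 and 8 depends on the processing, since the changes were 0.89, 1.07 and 0.82 with normexp correction and fell to 0.97 at day 4 and 0.87 at day 8 with the array median as the scale. Dlk1 and Meg3, which are read from opposite parental copies of the same region, were thus both higher, by very different amounts.

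Plagl1, also called Zac1, is a paternally expressed zinc finger protein that restrains the cell cycle. Its 4 probes were split. A_52_P532456 read 298.4 in the control and 3869, 3372 and 3022 at days 4, 6 and 8. A_55_P1961968 read 356.1, 4616, 3963 and 3632. A_55_P1961965, in the coding sequence, read 107.9, 107.8, 106.8 and 115.5, and A_55_P2153251 read 85.6, 76.8, 85.9 and 83.2. The first and second were 9.59-fold and 9.66-fold higher at day 8, while the log2 changes of the other two at day 8 were 0.02 ± 0.21 and -0.12 ± 0.21. The gene's mean change of 1.61 at day 8 is an average over these disagreeing probes and describes neither pair.

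The split follows position along the transcript. By the array files, the steady probes start at bases 2180 and 2610 of the Plagl1 transcript and the rising probes at bases 4591 and 5039. The distances between the probes are the same along the transcript and along chromosome 10 (430, 2411 and 2859 bases from the first), so no intron separates them in that model. The rising probes are also not independent readings, because they read near-identical sequence: over 48 aligned bases 46 are the same. The last 30 of those bases are shown, with the differing bases in capitals.
A_52_P532456, at chr10:12851280-12851339: actctgtaTttCgtttttgagactgtattc
A_55_P1961968, at chr10:12850832-12850891: actctgtaCttTgtttttgagactgtattc
Which of the readings stands for the Plagl1 mRNA was not tested.

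**Figure D2:**
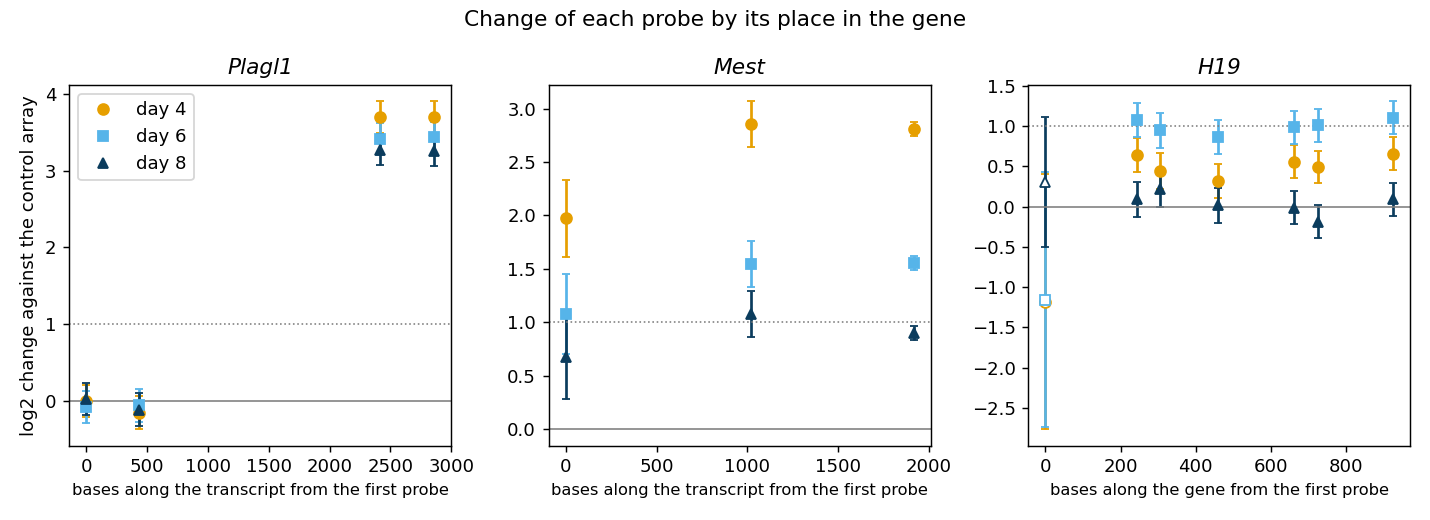
Log2 change of each probe against the control array (vertical axis) by its distance in bases from the gene's first probe (horizontal axis), for Plagl1, Mest and H19. Symbols mark days 4, 6 and 8, bars are the error within the arrays and open symbols are not well above background on both arrays. The Plagl1 probes at 0 and 430 bases stayed near 0 while those at 2411 and 2859 bases were above 3; the Mest probes changed together, as did 6 of the 7 H19 probes.

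Mest, a paternally expressed protein of the hydrolase fold family whose level in fat tissue is known to track with fat cell enlargement, rose early and then receded. Its best measured probe, A_51_P124535, was printed on 10 spots and read a mean of 139.4 in the control and 975, 426.5 and 273.9 at days 4, 6 and 8. The 10 spots ranged from 118 to 149.9 in the control, from 908.7 to 1031 at day 4, from 392 to 473 at day 6 and from 244 to 306 at day 8, so no spot of one array overlapped another array. A_55_P2090025 read 60.9, 439.7, 185.9 and 135.4, and A_55_P2151868, in the coding sequence, read 11.5, 45.1, 25.4 and 19.4. All 3 probes had the same order, with day 4 highest, then day 6, day 8 and the control, and each step of their mean was larger than 2 errors. The mean change was 2.55, 1.39 and 0.88 ± 0.15 at days 4, 6 and 8, so that Mest passed the 2-fold line at days 4 and 6 but not at day 8; between days 4 and 8 it fell by 1.66 on the log2 scale. At day 8, probe A_55_P2090025 alone was past the line, at 2.11-fold. With normexp correction the changes were 1.60, 0.76 and 0.37, so that the call at day 6 was lost.

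H19, a maternally expressed noncoding RNA that carries a microRNA in its first exon, peaked at day 6. The probe A_55_P1961127 read 767.7 in the control and 1208, 1723 and 864.3 at days 4, 6 and 8. The other 5 probes above background went the same way, with changes between 0.32 and 0.64 at day 4, between 0.87 and 1.07 at day 6 and between -0.19 and 0.22 at day 8. The gene's mean change was 0.52 at day 4, 1.00 at day 6, just under the 2-fold line, and 0.04 ± 0.09 at day 8, which is less than its error. The seventh probe, A_55_P1961125, never rose well above background, with signals between 2.20 and 6.52.

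Igf2, which shares its region with H19 and is made from the paternal copy, was near the limit of detection. Its only probe, A_55_P2118173, read 9.31 in the control, where it was not well above background, and 14.9, 20.8 and 24.8 at days 4, 6 and 8, where it was. Against the higher of that signal and the lowest signal called above background on the control array, it was at least 1.42-fold, 1.91-fold and 2.25-fold higher at days 4, 6 and 8, so the bound reached 2-fold at day 8 alone. The measured change at day 8 was 1.34 ± 0.50, more than 2 errors, over a control reading that was not well above background. No neighbouring pair of arrays in the order differed by more than 2 errors. With normexp correction the change was 0.19.

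Peg3, a paternally expressed zinc finger protein, and Grb10, an adaptor that dampens insulin and insulin-like growth factor signalling, changed little. The Peg3 probe A_52_P235861 read 56.2, 87.7, 68.3 and 91.3 over the control and days 4, 6 and 8, a change of 0.64 at day 4 and 0.62 ± 0.22 at day 8. The other, A_55_P2163319, was above background at day 4 alone, at 17.1. Its measured change there was 3.13-fold over a dim control reading of 5.46, which as a bound is at least 1.64-fold. Neither probe reached 2-fold at day 4 by a bound or by values above background on both arrays. The gene's mean of 1.15 includes the dim control reading, and was 0.68 with dim values at the floor and 0.64 over the first probe alone. Grb10 read 1106, 1639, 1347 and 1334 on its probe A_55_P1955457. The day 4 change of 0.57 ± 0.20 was its highest and was more than 2 errors, though under 2-fold. No neighbouring pair in the order differed by more than 2 errors.

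Ndn, or necdin, a paternally expressed growth suppressor of the MAGE family that also acts in fat cell precursors, was the member that went down. Its probe A_52_P451644 read 2796 in the control and 1677, 1484 and 1562 at days 4, 6 and 8. The control was above all 3 later arrays, which lay within 2 errors of their neighbours. The change was -0.73, -0.98 and -0.92 ± 0.20 at days 4, 6 and 8, a 1.89-fold lower signal at day 8 that stays inside the 2-fold line. With the array median as the scale, which moves the median of all genes at day 8 from -0.03 to -0.30, Ndn passed that line.

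**Figure D3:**
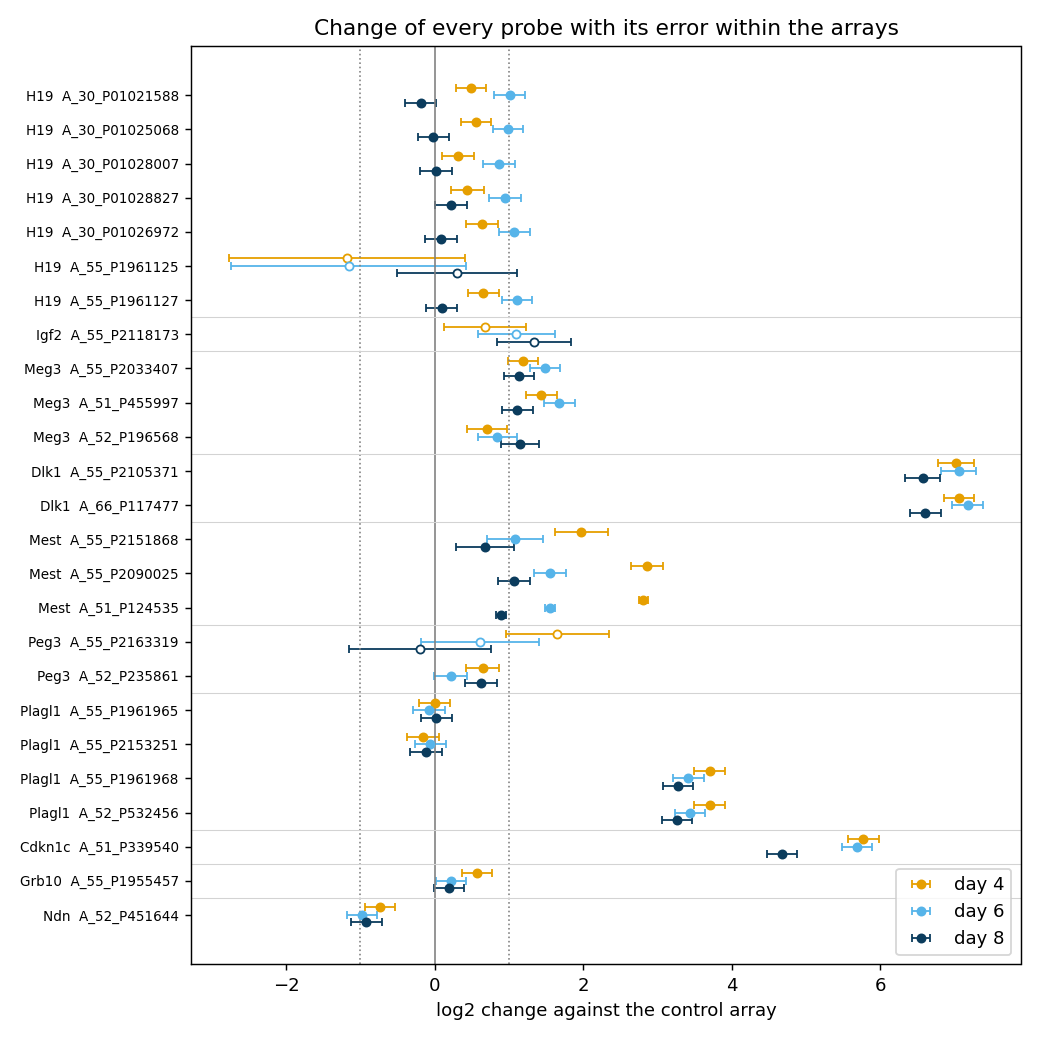
Log2 change of each of the 25 probes against the control array at days 4, 6 and 8 (horizontal axis), with bars for the error within the arrays; dotted lines mark 2-fold and open points have a probe that was not well above background on at least 1 of the arrays compared. Both Dlk1 probes and the Cdkn1c probe lie far to the right, and the Plagl1 probes form a steady pair and a rising pair.

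Of the 22 probes above background on all 4 arrays, 10, 13 and 9 were at least 2-fold higher at days 4, 6 and 8. On these days 0 were 2-fold lower. Among all genes above background on at least 1 array 12.1%, 13% and 14.4% were higher. The share among all probes was not counted, so the probe counts have no like share beside them. Probes of 1 gene are not independent readings, least of all the rising Plagl1 probes, and 6 of the 22 were of H19. The 13 at day 6 included 3 probes of H19. The higher probes belonged to 5, 6 and 5 genes at days 4, 6 and 8. Those at day 8 were Meg3, Dlk1, Mest, Plagl1 and Cdkn1c. The time courses were thus of several kinds. Dlk1, Cdkn1c and the rising Plagl1 probes went up by day 4 and stayed up, Mest and H19 went up and came back most or all of the way, Meg3 held a change close to the 2-fold line, on either side of it by the processing, and Ndn went down by day 4 and stayed down.

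**Figure D4:**
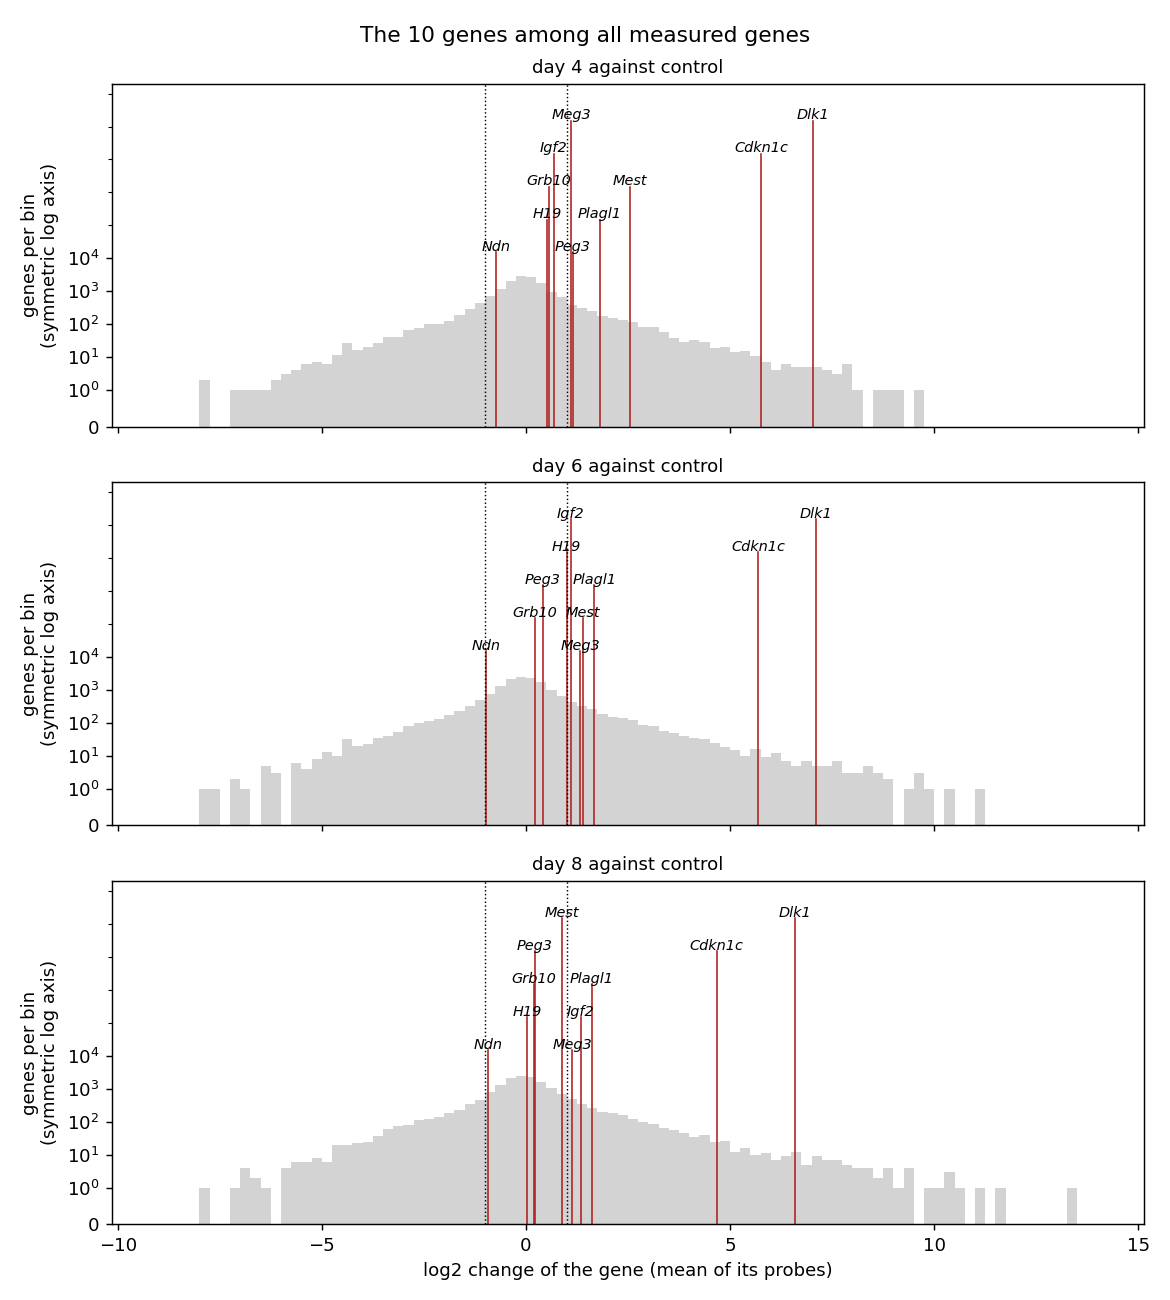
Number of genes (vertical axis, symmetric log scale) by log2 change against the control (horizontal axis, bins of 0.25) for all 16657 genes at days 4, 6 and 8, with the 10 imprinted genes marked by red lines whose height serves only the labels; dotted lines mark 2-fold. Dlk1 and Cdkn1c lie in the upper tail at every day, at 6.59 and 4.68 at day 8, and the other 8 genes lie between -0.92 and 1.61 there.

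Genes whose courses were closest were found among 13751 other genes above background on all 4 arrays, by the root mean square difference of the log2 change over the 3 days. For Dlk1 these were Bglap2, which encodes osteocalcin, at 0.18 and Adamts15, a matrix protease, at 0.28. For Cdkn1c they were Osr2, a zinc finger transcription factor, at 0.26 and Penk, the precursor of enkephalins, at 0.30. For Mest they were Prl2c1 at 0.24 and Prl at 0.25, both of the prolactin family. The likeness is over 3 values that share 1 control array, many genes lie near a small change, and nothing about function follows from it. For Plagl1 the measure uses the mean of probes that disagree, and gave Fam217b at 0.019 and Polr3g at 0.024.

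The promoters of 8 of the 10 genes were in the RefSeq promoter table of GRCm38.p6, in 15 windows of 250 bases before a transcript start; H19 and Cdkn1c are named only. The Dlk1 window and 1 Meg3 window are shown because these neighbours were both higher, and that of Plagl1 because its probes disagreed. These motifs were searched on both strands, namely CACGTG, the E-box that Myc with Max can bind, GGGNGTGG, a Klf4 site, GGGGCCCC, a core of the Plagl1 site, and TATAAA; capitals mark the matches.
Dlk1, chr12:109452573-109452822, plus strand: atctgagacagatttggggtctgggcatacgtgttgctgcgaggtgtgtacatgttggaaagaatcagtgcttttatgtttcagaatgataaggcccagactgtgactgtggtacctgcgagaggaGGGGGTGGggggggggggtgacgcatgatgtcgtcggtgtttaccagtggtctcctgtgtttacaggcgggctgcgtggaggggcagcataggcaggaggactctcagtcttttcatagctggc
Meg3, chr12:109540746-109540995, plus strand: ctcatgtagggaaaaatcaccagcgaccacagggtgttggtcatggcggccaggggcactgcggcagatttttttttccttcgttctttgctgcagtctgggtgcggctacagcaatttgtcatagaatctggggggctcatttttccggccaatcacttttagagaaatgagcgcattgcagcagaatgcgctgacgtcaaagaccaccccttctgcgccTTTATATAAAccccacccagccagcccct
Plagl1, chr10:13090582-13090831, plus strand: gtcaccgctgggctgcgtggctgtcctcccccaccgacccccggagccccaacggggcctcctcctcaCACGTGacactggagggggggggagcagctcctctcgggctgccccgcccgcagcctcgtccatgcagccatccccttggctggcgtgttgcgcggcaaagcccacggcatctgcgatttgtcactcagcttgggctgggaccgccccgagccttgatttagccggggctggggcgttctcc
The Dlk1 window held 1 Klf4 match and the Plagl1 window the only E-box among the 15. The Meg3 window shown held 2 overlapping TATAAA matches on opposite strands and 0 Klf4 matches. Another Meg3 window, not shown, held 4 Klf4 matches. Klf4 matches were in 5 of the 15 windows (Dlk1, Grb10, Igf2, Meg3 and Peg3), against 15.9% of all 32851 windows. The 15 windows come from 8 genes and are not separate units. The Mest windows that start at chr6:30737800 and chr6:30737803 overlap almost fully. No excess can be read from these counts. The E-box was in 6.02% of all windows, the Plagl1 core in 0.889% and, among the members, in 1 window of Peg3, and TATAAA in 12.4%. A match is a description of the letters, and says nothing of binding in these cells.

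Other genes listed as imprinted were then counted by the region they lie in. Expression by parental copy was not measured, so whether each was imprinted in these cells was not tested. Of 68 on the lists, 55 were above background on at least 1 array, 9 were not, and 4 had no probe here. At day 8, 12 of the 55 were by measured values at least 2-fold higher and 3 were lower, against 14.4% and 11.6% of all genes, and their median change was 0.01, beside a median of -0.03 for all genes. The 12 include Cpa4, Phlda2, Igf2os, Zim2, Rasgrf1 and Kcnq1ot1, which had a probe not well above background in the control. With dim values raised to the floor 11 were higher, without Cpa4, against 11.9% of all genes. By measured values 12 were higher and 3 lower at day 4, against 12.1% and 9.57% of all genes. At day 6 these counts were 11 and 4, against 13% and 11.4%.

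**Figure D5:**
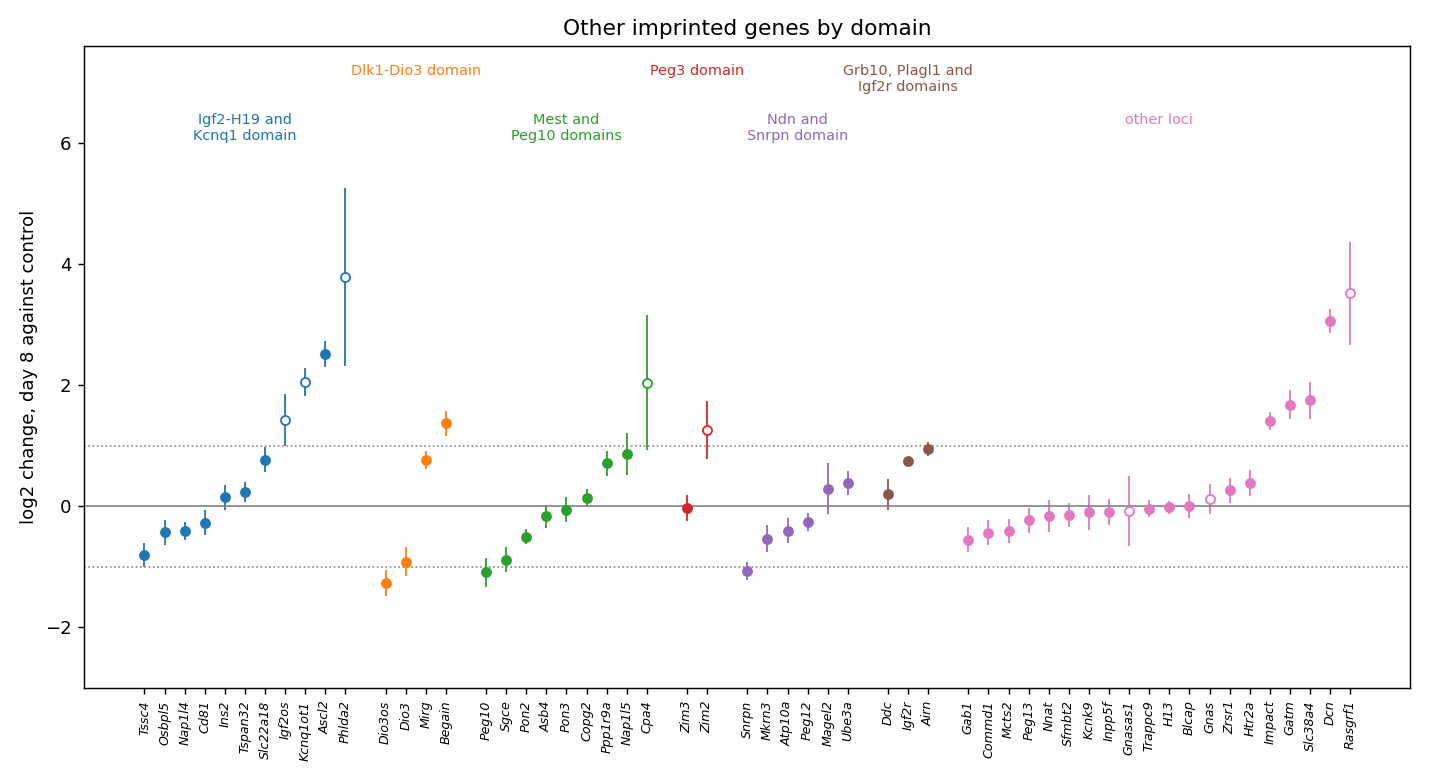
Log2 change from control to day 8 (vertical axis) of the 55 other imprinted genes measured, grouped and coloured by region, with bars for the error within the arrays, dotted lines at 2-fold and open points for genes with a probe that was not well above background in the control or at day 8. Most lie between the dotted lines, with a few in the Igf2-H19 and Kcnq1 region and among the other loci well above.

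In the Igf2-H19 and Kcnq1 region, which holds Cdkn1c, 4 of 11 measured genes were higher at day 8 and 0 lower. The median was 0.23, and of all genes 14.4% were higher and 11.6% lower. Ascl2, a basic helix-loop-helix factor of the trophoblast and of stem cells, was higher by 2.51 ± 0.22. Kcnq1ot1, the long antisense RNA whose promoter lies in the imprinting control element of that region, had a mean change of 2.05, with a dim probe in the control. Phlda2, a placental growth restrainer, and Igf2os, the antisense RNA of Igf2, were not above background in the control and were at least 3.08-fold and 2.62-fold higher at day 8. Ins2, Tspan32, Cd81, Tssc4, Slc22a18, Nap1l4 and Osbpl5 were inside the 2-fold line, and Kcnq1 was not above background on any array.

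In the Dlk1-Dio3 region 1 of 4 other measured genes was higher and 1 lower at day 8. Of all genes 14.4% were higher and 11.6% lower. Begain was higher by 1.37 ± 0.20 at day 8, and Dio3os, a noncoding RNA, was lower, with a change of -1.27. Mirg, a maternally expressed noncoding RNA like Meg3, changed by 1.33 at day 4 and 0.76 at day 8, and Dio3, which inactivates thyroid hormone, by -0.92. Rtl1 was not above background on any array and Rian had no probe here. The median of the 4 measured genes was -0.08 at day 8.

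Around Mest and Peg10, 1 of 9 measured genes was higher by its measured value and 1 lower at day 8. Of all genes 14.4% were higher and 11.6% lower. Peg10, a retrotransposon-derived gene, had a change of -1.09. The higher one, the carboxypeptidase Cpa4, was dim in the control and at least 1.54-fold higher at day 8, a bound that does not reach 2-fold. Sgce, Nap1l5, Ppp1r9a, Pon2, Pon3, Asb4 and Copg2, the gene that overlaps the end of Mest, were inside the 2-fold line by their means. Copg2 was at 0.14 ± 0.14, and the Pon2 probes ran from -1.31 to 0.13. Klf14 and Calcr were not above background. Around Peg3, Zim3 changed by -0.03, Zim2 was at least 2.11-fold higher at day 8, where alone it was above background, Usp29 and Zim1 were not above background, and Zfp264 had no probe here.

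In the Ndn and Snrpn region, 0 of 6 measured genes were higher and 1 was lower at day 8, and the median was -0.33. Of all genes 14.4% were higher and 11.6% lower. The lower one was Snrpn, a component of spliceosomes, with a change of -1.24, -1.33 and -1.07 ± 0.14 at days 4, 6 and 8. Magel2, Mkrn3, Peg12, Ube3a and Atp10a lay between -0.53 and 0.38, and Snurf had no probe here. Near Grb10 and Igf2r, Ddc was higher by 1.61 at day 4 and by 0.19 at day 8. At day 8 Igf2r was higher by 0.75 ± 0.06 and Airn, its antisense RNA, by 0.94. None of the 3 was past the line at day 8 by its mean, but the Airn probes disagree, from 0.0007 to 1.72. Slc22a2 and Slc22a3 were not above background, and Hymai, the transcript that overlaps Plagl1, had no probe here.

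Among other imprinted loci, 5 of 20 measured genes were higher at day 8 and 0 were lower, against 14.4% and 11.6% of all genes. Dcn, which encodes the matrix proteoglycan decorin, was higher by 3.06 ± 0.20, Slc38a4, an amino acid transporter, by 1.75, and Gatm, an enzyme of creatine synthesis, by 1.67. Impact, a regulator of translation, was higher by 1.41. Rasgrf1, a Ras exchange factor, was not above background in the control, and its change was 1.90 with dim values raised to the floor. The other 15 were inside the line, and Zdbf2 was not above background on any array.

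The insulin-like growth factor axis, in which Igf2 and Grb10 work, had 5 of 18 measured genes higher and 4 lower at day 8, against 14.4% and 11.6% of all genes, and a median of 0.11. The receptor Igf1r was lower, with a change of -1.20, and the receptor Igf2r, which clears Igf2, was inside the line. Of the binding proteins, Igfbp2 was lower by far, at -4.77 ± 0.15, while Igfbp4 and Igfbp6 were higher by 2.23 and 1.99. Of the RNA-binding proteins named for the Igf2 message, Igf2bp3 was higher by 2.25 and Igf2bp1 was lower, at -2.05.

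A mixed list of genes linked to Dlk1 and of general preadipocyte factors gave 1 higher and 2 lower of 12 measured at day 8. The shares of all genes were the same 14.4% and 11.6%. Zfp423, a factor of preadipocyte commitment, was higher by 3.37 ± 0.13, Hes1, a Notch target, was lower at -2.55, and Itgb1, an integrin subunit that contributes to the fibronectin receptor, was lower at -1.35. Adam17, the protease that sheds Dlk1, changed by 0.44, and Sox9, which Dlk1 can induce in preadipocytes, by -0.43.

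The relatives of Cdkn1c were inside the 2-fold line by the mean of their probes. Cdkn1a, the inhibitor p21, changed by 0.61 ± 0.10 at day 8, with probes that disagree, from 0.06 to 1.43, and Cdkn1b, the inhibitor p27, by 0.26 ± 0.15. Of the 9 inhibitors and partners, 0 were higher and 4 were lower at day 8, against 14.4% and 11.6% of all genes, with a median of -0.74. Ccna2, Cdk2 and Ccnd1 had changes of -2.22, -1.41 and -1.34, and Pcna one of -1.03.

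A list of genes linked to keeping, setting or removing imprints and DNA methylation had 2 of 15 measured higher and 3 lower at day 8. The median was 0.18, and of all genes 14.4% were higher and 11.6% lower. Dnmt1, the maintenance DNA methyltransferase, had a change of -1.19 ± 0.20, and Uhrf1, which brings it to newly copied DNA, -3.40, with a dim probe at day 8. Dnmt3l, a cofactor of new methylation in germ cells, had a change of -1.76. Tet1 and Tet2, which oxidise methylated cytosine, were higher by 2.06 and 1.24, Tet1 with a dim probe in the control and Tet2 with probes that disagree, from 0.20 to 1.75. Zfp57, Trim28, Ctcf and Smchd1 were inside the line by their means. The probes of Zfp57 ran from -1.60 to -0.15. Those of Trim28, with a dim probe in the control, ran from -0.64 to 0.71. DNA methylation was not measured.

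Markers of other states also differed between the same arrays, and each list is set against itself across the arrays. Of all genes 14.4% were higher and 11.6% lower at day 8. All 7 adipocyte markers were higher at day 8, their summed level (relative to the 75th percentile of the array) going from 8.11 in the control to 47.9, 178 and 382 at days 4, 6 and 8; Adipoq, Plin1 and Cfd were not above background in the control. Of 4 smooth muscle markers 3 were lower, and their sum went from 580 to 36.9, 20.3 and 19.2. All 10 progenitor markers were above background on all arrays, 1 higher and 5 lower at day 8, with a sum of 675 in the control and 526 to 549 later; Gata4, Tcf21 and Tbx5 were lower at day 8, at -5.01, -4.65 and -3.29, while Ly6a, which encodes Sca-1, was higher by 2.69. The sums were between 4.19 and 12.0 for cardiomyocyte markers and between 1.11 and 1.78 for endothelial markers. By measured values 2 of 5 cardiomyocyte markers were higher and 1 lower at day 8. Of 5 endothelial markers 0 were higher and 2 lower, Cdh5 by at least 11.9-fold and Tek at -2.70. The sums were between 0.48 and 0.80 for leukocyte markers and between 0.70 and 0.90 for pluripotent cell markers. Of 5 leukocyte markers 2 were higher and 1 lower, and of 3 pluripotent cell markers 1 was higher and 0 lower. Pou5f1, the gene of Oct4, and Sox2 were not above background on any array. These probes are for the mouse genes, while the paper lists human primers for the transduced factors. Whether the probes can read the viral Oct4 and Sox2 was not tested. Of the 4 epicardial markers 2 were higher and 2 lower at day 8. Msln and Krt19 were higher by 6.45 and 2.75, Upk3b had a change of -3.10, and Wt1, not above background later, was at least 10.8-fold lower; their sum of 3.27 in the control and of 18.0, 22.5 and 24.3 later follows the brightest. In such bulk RNA, fewer cells of a type and less RNA per cell cannot be told apart. The part of changed cell make-up in the imprinted gene values was not tested.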

How the data were processed

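RNA of the control and of OSKM-CMPs at days 4, 6 and 8 had been labelled with Cy3 and hybridised to 1 Agilent mouse array each. The deposited files hold, per spot, a background-subtracted intensity, its error and flags; their headers name Feature Extraction 10.7.3.1 and the labels 9.5.3. The authors' normalized table, from GeneSpring, holds log2 values and served as an alternative. The genes, lists and tests were chosen with earlier results of these data known. Control and outlier spots were left out, log2 intensities of repeated spots were averaged to give 55681 probes, and each array was scaled by subtracting its 75th percentile. Between 56.6% and 59.6% of probes were well above background per array. Probes above background on 1 array or more entered, and a gene was the mean of its probes. RefSeq names (GRCm38.p6) were found for 26762 probes through an accession, for 3819 through a symbol and for 639 through a synonym; 24461 went unnamed. All 25 member probes kept their names. Called was at least 2-fold. A dim side gives a bound, and counts were also made with dim values raised to the lowest signal called above background on their array. Errors come from the Feature Extraction error model. Named genes were all members and, per list, up to 3 measured rises and 3 falls past 2-fold from control to day 8; the genes closest in course to Meg3 are not reported here; other genes were named by their status, some with values, after their values had been seen. The 9 alternatives changed background correction, scale, filter, floor, probe choice or outlier spots. The scripts were tested on simulated data. Python 3.11.15, pandas 2.3.3, R 4.3.3 and limma 3.58.1 were used.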

Additional observations from a re-analysis of the deposited data

How the results depend on the processing

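The median log2 change of the 10 genes stayed above 0 on all 3 days under all 9 alternatives, but its size depended on the setting. With normexp correction and quantile normalization it was 0.75, 0.73 and 0.29 at days 4, 6 and 8, and the count of genes at least 2-fold higher at day 8 was 3 in place of 5. With the array median as the scale it was 0.99, 1.09 and 0.74 while the median of all genes moved to -0.15, -0.17 and -0.30, and 1 gene, Ndn, was at least 2-fold lower at day 8. The day 8 median was 0.87 with quantile normalization and 0.88 over probes above background on all arrays, and the day 4 median 0.89 with dim values at the floor. Taking Plagl1 from its steady probes, a setting chosen after seeing the data, gave 0.90, 1.05 and 0.55; taking it from its rising probes left the medians as they were. Of 267 values of single genes under the alternatives set beforehand, 214 moved by less than the error within the arrays, 53 moved by more and 0 called changes turned sign. The pooled count includes settings that change little, since the authors' values and kept outlier spots each moved 0 and left 30. Normexp correction moved 22 and left 8, the array median moved 15 and left 15, and the brightest probe moved 10 and left 20. Calls at 2-fold were lost with normexp for Meg3 at days 4 and 8 (0.89, 0.82), Mest at day 6 (0.76), Peg3 at day 4 (0.27) and Igf2 at days 6 and 8 (both 0.19), and with the array median for Meg3 at days 4 and 8 (0.97, 0.87) and Igf2 at day 6 (0.97). That of Peg3 at day 4 was also lost with dim values at the floor (0.68), over probes above background on all arrays and with the brightest probe (both 0.64), and that of Igf2 at day 6 with dim values at the floor (0.93). Calls were gained for Ndn at days 6 and 8 with the array median (-1.11, -1.19) and for H19 at day 6 with the brightest probe. Other causes of these shifts were not tested. No paired analysis was possible because single arrays were hybridised, and for that reason no replicate could be left out. Signal over background limits Igf2, Peg3 probe A_55_P2163319 and H19 probe A_55_P1961125.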
